A study of Mus musculus with 2 samples.

Results

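Transcripts of 9 transcription factors of the urothelium, the epithelium that lines the ureter, were followed in cultured embryonic mouse ureters: Pparg, Rxra, Trp63, Grhl2, Grhl3, Gata3, Foxa1, Elf3 and Klf5. They were taken by gene name from the scanner files, as 9 of 30011 genes or unnamed features and 14 of the 39429 probes on the array, and 13 of these probes were measured above background. Ureters of wild-type NMRI mouse embryos, sexes mixed, were taken at E13.75 (days after conception) and kept in culture for 18 h, either with 10 µg/ml NOGGIN in the medium or without NOGGIN (control). NOGGIN is an extracellular inhibitor: it traps bone morphogenetic proteins (BMPs) before they can reach a receptor. Total RNA, 200 ng a sample, was labelled with a green or a red dye, and 2 arrays each took 1 NOGGIN and 1 control sample. NOGGIN was green on array 1 and red on array 2. Whole ureters were measured, so fewer cells of a type and less RNA per cell cannot be told apart.

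As background, PPARG is a nuclear receptor that binds DNA as a partner of RXRA and switches on genes of lipid handling in fat cells and of differentiation in urothelial cells. TP63, the product of Trp63, is the master regulator of basal cells in layered epithelia. GRHL2 and GRHL3 are Grainyhead factors that keep epithelial junctions and barriers, GATA3 and FOXA1 open chromatin in luminal epithelia, and ELF3 (an ETS factor) and KLF5 (a Krüppel-like zinc finger factor) act in epithelial differentiation and growth.

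The probes that carry the results are shown here by their opening stretch, 5′ to 3′, as deposited in the scanner files. They were chosen because Pparg has the largest ratio of the 9 genes and because the Grhl2 probes went opposite ways. The Trp63 probes of variants 4 and 3 were chosen because the files assign them to different transcripts. Whether their sequences tell these transcripts apart was not checked. The whole 60 bases are given for the variant 3 probe of Trp63, in capitals where the triplet CAG is repeated 6 times in a row.
Pparg, first 30 bases: gcaggaaagtcccacccgctgacaacgtgt
Trp63 variant 4, first 30 bases: caaaaggtactttcttatagacatgatact
Trp63 variant 3, 60 bases: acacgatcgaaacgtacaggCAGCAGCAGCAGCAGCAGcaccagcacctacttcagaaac
Grhl2 brighter probe, first 30 bases: ccctttctgaaggacaagcaggggagactc
Grhl2 dimmer probe, first 30 bases: acaaggagagcttcaacaccatcgggaaca
The Pparg probe lies at chr6:115440213-115440272 on the plus strand of mouse build mm9. The Trp63 probes named after transcript variants 4 and 3 lie at chr16:25892012-25892071 and chr16:25871159-25871218, and the files assign them to 4 and 3 RefSeq transcripts with 0 in common. The Grhl2 probes lie at chr15:37293139-37293198 (brighter) and chr15:37239426-37239485 (dimmer), both assigned to the same transcript. The Klf5 probe spans chr14:99702656-99712388, 9733 bases for a 60-base probe, so it crosses a splice junction. Exon and UTR annotation of mm9 was not used here.

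The direction of the ratios rests on the dye labels, which the study's own table opposes. Id1, a transcript induced by BMP-SMAD signalling, was higher in the channel labelled NOGGIN, at 2.14 ± 0.09 on the log2 scale (SD, n = 2). In the authors' deposited table Id1 has signed folds of -4.65 and -4.53. The sample titles name NOGGIN before control, and taken in that order the table runs the other way. The same table lists Pparg at -3.25 and -2.98. All ratios below divide the signal labelled NOGGIN by the signal labelled control. Exchanging the dye labels would turn every sign and keep the sizes. The arrays shared 1 slide and 1 scan. Interferon-induced genes stood apart on array 2, where the 12 listed had a median log2 ratio of 3.103, against 0.42 on array 1. For this reason the values of the 9 factors are given by array. Other genes are given by array or as a mean with its SD. The labels do not say that the arrays hold separate litters, so p-values measure only the spread between these samples.

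Pparg stood apart from the other 8 factors. Its probe had normalised log2 signals of 13.98 and 13.94 in the 2 samples labelled NOGGIN, against 12.20 and 12.44 in the 2 labelled control. Before normalisation the mean spot brightness was 20724 and 13653 in the samples labelled NOGGIN, against 3522 and 7945 in those labelled control. Both samples labelled NOGGIN lay above both labelled control on either scale, and in the dye orientation of each array. On the normalised scale the same held for the brightest probes of Rxra, Grhl3 and Gata3, with smaller gaps. The difference was 3.43-fold on array 1 and 2.83-fold on array 2, a mean log2 ratio of 1.64 ± 0.20 (SD, n = 2) or 3.12-fold, with a 95% interval of 1.21 to 2.07. The spots used ran from 1.64 to 1.88 on array 1 (3 spots) and from 1.18 to 1.69 on array 2 (4 spots), in log2 ratio. Among 22311 genes or unnamed features tested, Pparg ranked 76th by the size of its ratio, whatever the direction, and 45th from the highest ratio with the dye labels as given.

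**Figure D1:**
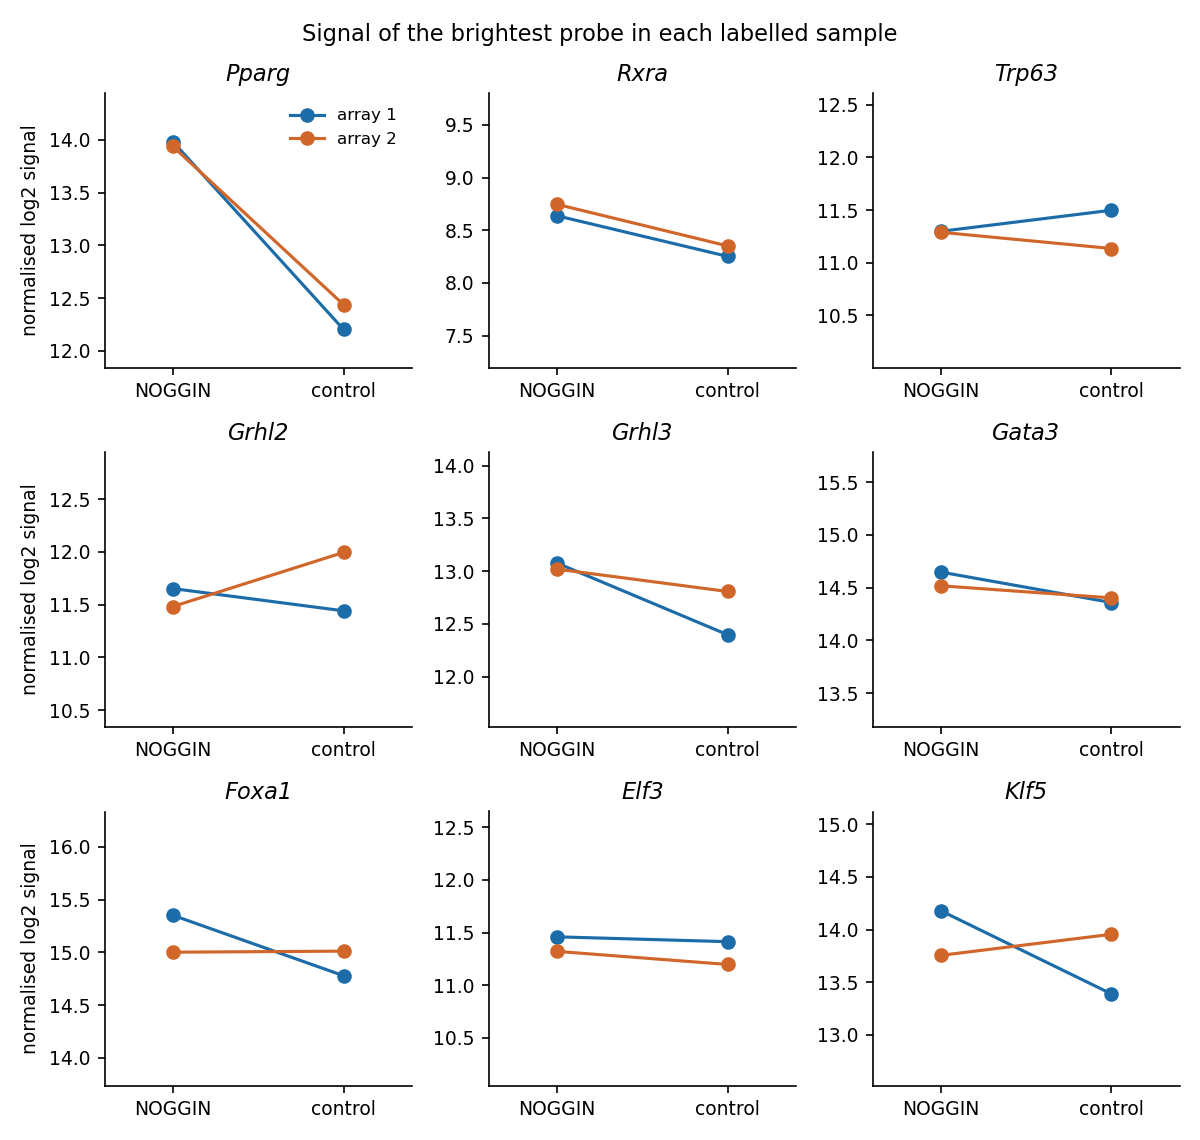
Normalised log2 signal of the brightest probe of each of the 9 genes in the samples labelled NOGGIN and control, with a line joining the samples that share an array; every panel spans the same width on the log2 scale around its own mean, and heights of different genes are not comparable. Pparg is higher on the left on both arrays, by 3.43-fold and 2.83-fold, whereas the lines of Trp63, Grhl2, Foxa1 and Klf5 run in opposite directions on the 2 arrays.

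A rule of 1.5-fold or more, the same way on each array, was met by 1 of the 9 genes, Pparg, on the higher side and by 0 on the lower side. Over all genes 2.19% met that rule in either direction, 0.941% on the higher and 1.25% on the lower side. On array 1 alone 3 of the 9 (Pparg, Grhl3 and Klf5) passed 1.5-fold, where 4.31% of all genes did, and on array 2 alone 1 did, Pparg, where 11.8% of all genes did. In limma's moderated test Pparg had an adjusted p = 0.0989 (Benjamini-Hochberg over all genes, threshold 0.05), so it did not pass. No gene of the whole table passed, and the lowest adjusted p was 0.073, while 1348 genes (6.04%) had an unadjusted p under 0.05. Of the 9 factors, 1, Pparg, was under 0.05 before adjustment. The adjusted p of Pparg passed under 3 of the settings tried, with limma's trend and robust variance (adjusted p = 0.0117), with median centring (adjusted p = 0.014) and with the test limited to probes bright in each channel (adjusted p = 0.0257), and it ranged up to 0.62 over the others. The 9 genes had a median log2 ratio of 0.28, against -0.01 over all genes. On array 1 their median was 0.39, against 0.02 over all genes, and on array 2 it was 0.12, against -0.05. The 8 other than Pparg ran from -0.15 to 0.45. All 9 genes were chosen with earlier results of these data known.

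**Figure D2:**
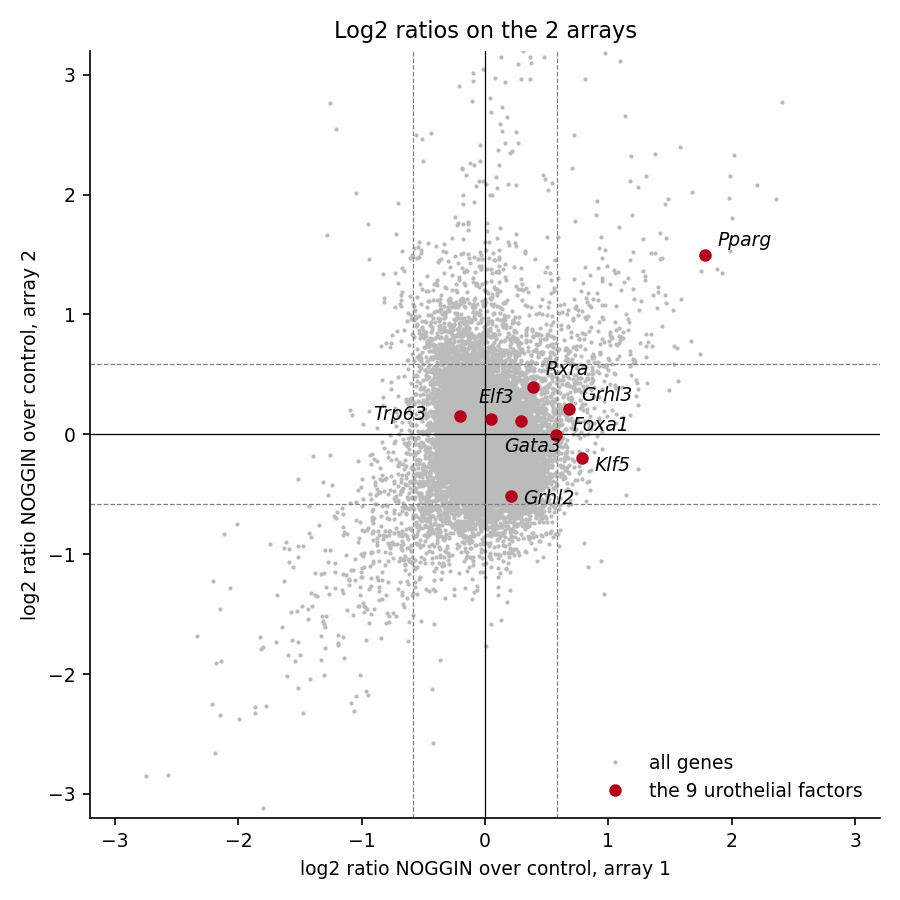
Log2 ratio of the signals labelled NOGGIN over those labelled control on array 1 (x axis) and array 2 (y axis) for 22294 genes in grey, with 17 genes outside the plotted range, and the 9 factors in red; dashed lines mark 1.5-fold. Pparg lies in the corner past 1.5-fold on both arrays, at 3.43-fold and 2.83-fold, and the other 8 lie inside at least 1 pair of dashed lines.

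The 5 genes whose pair of ratios lay nearest to that of Pparg, by Euclidean distance over the 2 arrays, were Nrn1l (1.55 ± 0.27), Calcb (1.63 ± 0.36), Fa2h (1.63 ± 0.40), Id4 (1.76 ± 0.32) and Aqp3 (1.55 ± 0.12). These are mean log2 ratios with SD over 2 arrays. Their distances from Pparg ran from 0.14 for Nrn1l to 0.34 for Aqp3. Id4 belongs to the same family of helix-loop-helix inhibitors as Id1, Fa2h encodes a fatty acid hydroxylase and Aqp3 a water and glycerol channel. With 2 points a gene, this likeness is a description only.

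Rxra, the DNA-binding partner of Pparg, was higher by less than 1.5-fold on both arrays. Its brighter probe (chr2:27618781-27618839, mm9) had log2 signals of 8.64 and 8.75 in the samples labelled NOGGIN, against 8.25 and 8.35 in those labelled control. The log2 ratios were 0.39 and 0.39, or 1.31-fold, with an SD of 0.006 between arrays. limma gave a 95% interval of -0.01 to 0.79 and an adjusted p = 0.853, since it draws much of its variance from all genes. The second Rxra probe, 3465 bases upstream, gave 0.10 and 0.14. Its spots on array 1 ran from -0.45 to 0.38, wider than the gap to the brighter probe.

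Relatives and partners of PPARG had smaller ratios. Of the 4 further PPAR and RXR genes, 0 met the 1.5-fold rule. Ppard had -0.16 ± 0.02 and Rxrb, another partner, had 0.19 ± 0.27, and Rxrg had -0.36 on array 1 and 0.81 on array 2. Of 10 coregulators, 0 met the rule, and the largest ratios were those of the coactivators Ppargc1b (-0.47 ± 0.19) and Ppargc1a (-0.44 ± 0.23), which were lower on both arrays. The coregulator list had a median of -0.15.

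Genes that PPARG is known to switch on in fat and other tissues had mixed signs. Of 20 listed, 16 were measured, and 0 were lower by the 1.5-fold rule. Pdk4, an inhibitor of glucose oxidation, had 0.65 ± 0.26 and the lipase inhibitor Angptl4 had 0.50 ± 0.33, both above 0 on each array and below 1.5-fold on array 2. In all, 7 of the 16 were above 0 on both arrays, where 20.4% of all genes were. The 2 below 0 on both, where 23.3% of all genes were, were Lpl (-0.31 ± 0.34) and Lipe (-0.22 ± 0.16). The other 7 had opposite signs. The list had a median of 0.23, with 0.29 on array 1 and 0.11 on array 2, beside -0.01 over all genes.

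Fat cells, the best known site of Pparg, were checked by 5 markers. The probes of Adipoq, Cfd and Lep were not kept, being not well above background in any control sample, and Adipoq was above it in 1 sample labelled NOGGIN. Plin1 had 0.07 ± 0.18, and Fabp4, which endothelium and macrophages also make, had -0.23 on array 1 and 1.19 on array 2.

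Sequence around the RefSeq starts of Pparg was searched for motifs because Pparg lay on the same side as the BMP targets. The table used (RefSeq, build GRCm38.p6) holds 3 windows of 300 bases for Pparg, from 250 before to 50 after each start, and 6 of the 9 factors had at least 1 window. The motif GGCGCC, a GC-rich element bound by BMP-activated SMADs that reads the same on both strands, was found 1 time in the window at chr6:115360894-115361193 (plus strand), at position -227 from the start, where it is in capitals.
Pparg window: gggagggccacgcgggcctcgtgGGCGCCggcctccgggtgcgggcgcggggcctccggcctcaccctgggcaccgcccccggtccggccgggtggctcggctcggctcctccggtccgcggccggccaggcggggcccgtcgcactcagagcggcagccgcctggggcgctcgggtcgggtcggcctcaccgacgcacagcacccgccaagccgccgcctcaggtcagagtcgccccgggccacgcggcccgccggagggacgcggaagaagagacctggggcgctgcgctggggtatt
The window is 80.3% G or C. Of all 32851 windows in the table, 11.87% hold that motif. That share covers windows of any composition and was not matched to windows as rich in G and C. Whether SMADs bind this site was not tested. It was also found 2 times in the window of Gata3, and in none of the other windows of Pparg, Rxra, Grhl3, Foxa1 or Elf3. The PPAR-RXR element, AGGTCA repeated after a spacer of 1 base and searched on both strands, was in 0.04% of all windows and in none of these factors' windows.

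Trp63 gave different ratios by probe. The brightest probe, named after variant 3, had log2 signals of 11.30 and 11.29 in the samples labelled NOGGIN, against 11.50 and 11.14 in those labelled control. These overlap, and the ratios of -0.20 and 0.15 average -0.02 ± 0.25 (SD, n = 2). The variant 4 probe had 10.77 and 11.17 in the samples labelled NOGGIN, against 9.98 and 10.36 in those labelled control. Its ratios were 0.78 and 0.80, a mean of 0.79 ± 0.01 or 1.73-fold, past 1.5-fold on both arrays. Among all 29638 measured probes 1.92% met that rule. When all probes were fitted singly, limma gave it an unadjusted p = 0.00394 and an adjusted p = 0.323. The variant 4 probe exceeded the variant 3 probe by 0.99 on array 1 and 0.65 on array 2 in log2 ratio, and with 2 arrays this gap was not tested.

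The remaining Trp63 probes are named after cDNA clones with no RefSeq transcript in the files. The probe of a hypothalamus clone (chr16:25821344-25821403, mm9) had 8.28 and 8.30 in the samples labelled NOGGIN, against 7.65 and 8.05 in those labelled control, and ratios of 0.64 and 0.25. The probe of an embryo head clone was not well above background in either sample labelled control, and at its lower bound no fold could be given. Of the 3 measured Trp63 probes, those above 0 on both arrays were the variant 4 probe and the hypothalamus clone probe.

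Known targets of TP63 had a median log2 ratio of -0.45, against -0.01 over all genes. Of 13 listed, all measured, 8 were below 0 on both arrays, where 23.3% of all genes were, 2 were above, where 20.4% of all genes were, and 3 had opposite signs. By the 1.5-fold rule 1 was lower and 0 were higher. Cdh3, which encodes P-cadherin, had -1.99 and -2.37 (-2.18 ± 0.27, limma adjusted p = 0.073). The basal keratins Krt5 (-0.65 ± 0.16) and Krt14 (-0.86 ± 0.65) were below 0 on both arrays. The count past 1.5-fold became 5 on the scanner software's processed signals and 4 on the authors' deposited values. Of the 4 markers of basal and intermediate cells, all were below 0 on both arrays and 1, the keratin Krt15 (-0.83 ± 0.29), met the rule. Apart from Krt15 these markers are also among the TP63 targets counted above, so the lists are not independent.

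**Figure D3:**
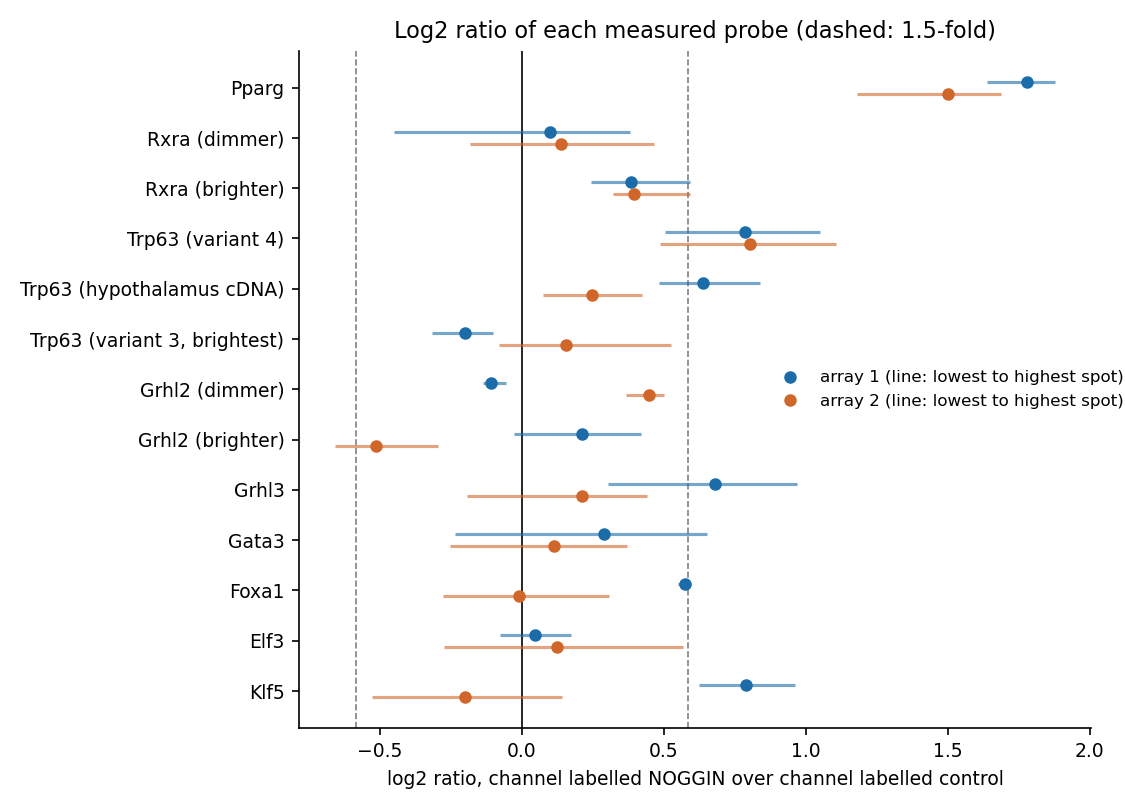
Log2 ratio of the signals labelled NOGGIN over those labelled control for each of the 13 measured probes, with points for the mean of the spots on each array, lines for the lowest and highest spot, and dashed lines at 1.5-fold. Pparg and the Trp63 variant 4 probe lie past 1.5-fold on both arrays, and the 2 probes of Grhl2 change places between the arrays.

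Grhl2 gave no direction. Its brighter probe had log2 signals of 11.65 and 11.48 in the samples labelled NOGGIN, against 11.44 and 11.995 in those labelled control, with ratios of 0.21 and -0.51. Its dimmer probe, 53713 bases away in the gene, had 8.43 and 8.39 in the samples labelled NOGGIN, against 8.54 and 7.95 in those labelled control, with ratios of -0.11 and 0.45. On each array the probes had opposite signs, and each probe changed sign between arrays. The brighter probe averaged -0.15 ± 0.51 with a 95% interval of -0.71 to 0.41.

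Grhl3 was above 0 on both arrays. Its probe (chr4:135097991-135098050, minus strand) had 13.08 and 13.02 in the samples labelled NOGGIN, against 12.40 and 12.81 in those labelled control. The ratios of 0.68 and 0.21 average 0.45 ± 0.33, or 1.36-fold, past 1.5-fold on array 1 only (limma adjusted p = 0.883). Grhl1, another Grainyhead factor, had 0.71 and 0.39, and Ubp1, of the related CP2 branch, had -0.17 and 0.93.

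Of 14 targets of Grainyhead factors, with a median of -0.07, the 1.5-fold rule was met by 1 on each side. Ovol1, a zinc finger factor of epithelia, had 0.86 ± 0.31, and Cldn3, which encodes a claudin of tight junctions, had -1.15 ± 0.03. Cdh1, which encodes E-cadherin, had -0.48 ± 0.38. Of the 14, 9 had opposite signs on the 2 arrays. Among all genes 43.7% had the same sign on both, so opposite signs were common.

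Gata3 and Foxa1, the chromatin-opening factors, did not meet the 1.5-fold rule. Gata3 had 14.65 and 14.52 in the samples labelled NOGGIN, against 14.36 and 14.40 in those labelled control, with ratios of 0.29 and 0.11 (0.20 ± 0.12, 95% interval -0.21 to 0.61). Foxa1 had 15.35 and 15.002 in the samples labelled NOGGIN, against 14.78 and 15.01 in those labelled control, with ratios of 0.57 and -0.01 (0.28 ± 0.41). On array 1 the Foxa1 value rests on 2 of 4 spots, as the scanner software marked the others as outliers. With all spots kept its mean was 0.20.

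Among relatives, 6 of 7 GATA and FOXA genes were measured. Foxa2, an endodermal pioneer factor, was the 1 that met the 1.5-fold rule, at -0.95 and -0.78. Its probe was well above background in 1 of the 2 samples labelled NOGGIN and in both labelled control, so the size of the ratio is uncertain. It was -1.76 on the scanner software's processed signals and -1.54 on the authors' deposited table.

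Elf3 was within 1.5-fold on each array. It had 11.46 and 11.32 in the samples labelled NOGGIN, against 11.41 and 11.20 in those labelled control, with ratios of 0.05 and 0.12 (0.08 ± 0.06, 95% interval -0.32 to 0.49). Of 6 further ETS factors of its group, 0 met the rule. Elf5 had 0.50 and 1.00, Ehf, another epithelial ETS factor, had -0.38 and 0.67, and Spdef, a factor of secretory cells, had 0.11 and -0.64.

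Klf5 differed most between arrays. It had 14.18 and 13.76 in the samples labelled NOGGIN, against 13.39 and 13.96 in those labelled control. The ratios of 0.79 and -0.20 average 0.29 ± 0.70, and limma's 95% interval runs from -0.38 to 0.97. On both arrays the green channel was the brighter, whichever sample it held, as it was for the brighter Grhl2 probe. Array, dye and sample cannot be told apart in such a gap. Over all genes 43.7% had the same sign on both arrays, so opposite signs were common. Of 16 KLF relatives, 2 were lower by the 1.5-fold rule and 0 were higher, namely Klf14 (-0.83 ± 0.34) and Klf4 (-0.72 ± 0.10), a factor of epithelial barriers.

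Products of differentiated urothelium lay on both sides. Of 5 uroplakins, the membrane plaque proteins of superficial cells, 1 was higher by the 1.5-fold rule, Upk3b (0.89 ± 0.04), and 0 were lower. Upk1a had 1.23 on array 1 and 0.43 on array 2, and Upk2 had 0.58 and 0.13. Upk3a (0.25 and -0.10) and Upk1b (0.05 and -0.37) had opposite signs on the arrays. Krt20, the keratin of superficial cells, was on the other side at -0.84 and -1.70 (-1.27 ± 0.61), the 1 of the 7 keratins in that list past the rule. Krt15, counted above with the basal markers, is not in that list.

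Markers of other cells were set beside these values. The 7 general epithelial markers had a median of -0.002 and none met the 1.5-fold rule. Of these, 3 were below 0 on both arrays, where 23.3% of all genes were, 2 were above, where 20.4% were, and 2 had opposite signs. The largest ratios were those of Cdh1 (-0.48 ± 0.38) and Krt7 (-0.39 ± 0.31), both below 0 on each array. The summed signal of the 7 was 281320 and 257460 in the samples labelled NOGGIN, against 240540 and 269770 in those labelled control. The 5 smooth muscle markers had a median of -0.79, with 1 higher (Myocd, 1.05 ± 0.16) and 2 lower (Tagln, -0.98 ± 0.23, and Cnn1, -0.80 ± 0.16), and the summed signal was 102810 and 155320 in the samples labelled NOGGIN, against 246790 and 208220 in those labelled control. Of 6 mesenchymal markers 1, Tbx18 (0.77 ± 0.17), was higher by the rule, while 4 were below 0 on both arrays, the lowest being Col3a1 (-0.80 ± 0.34). Their median was -0.26, and their summed signal was 332870 and 345790 in the samples labelled NOGGIN, against 490520 and 464300 in those labelled control. Of 5 nephron markers 2, Lhx1 (-1.12 ± 0.56) and Wt1 (-0.90 ± 0.02), were lower. None of the 6 endothelial, 5 macrophage or 5 neuronal and glial markers met the rule. Their part in the ratios of the 9 factors was not tested.

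**Figure D4:**
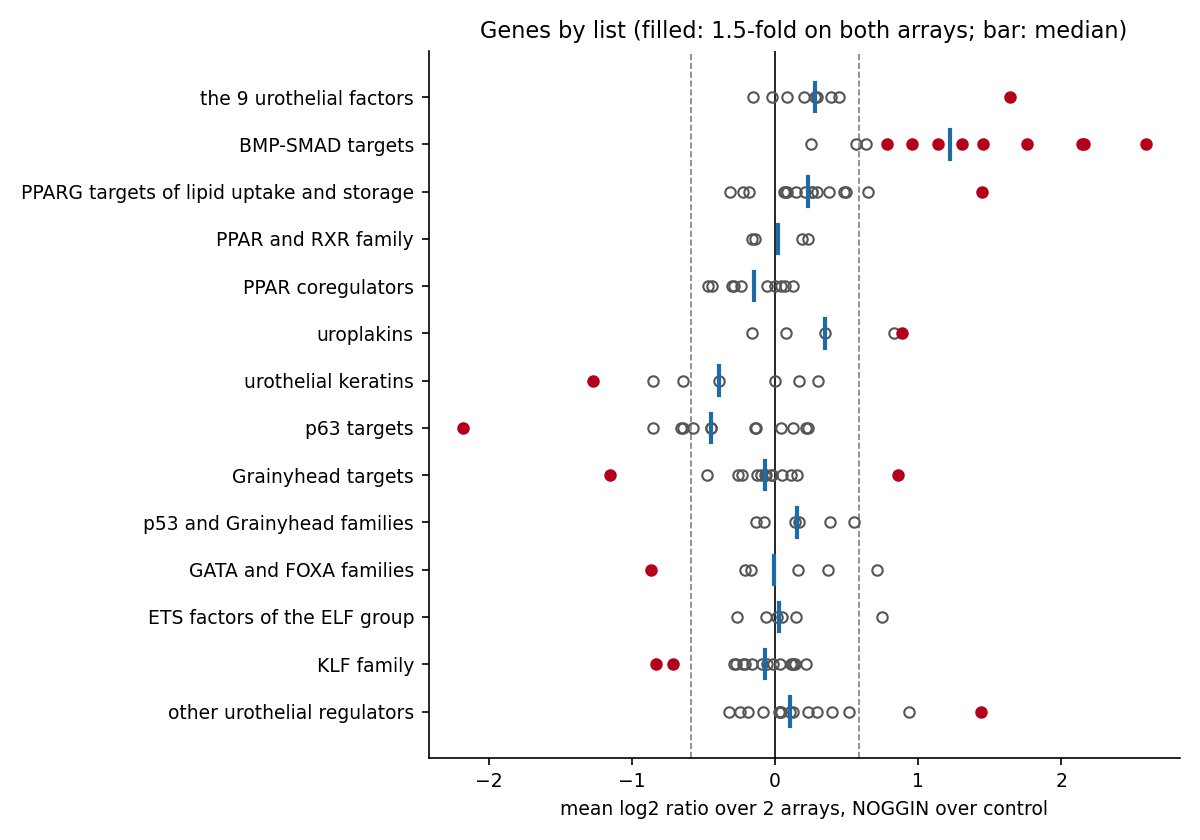
Mean log2 ratio over the 2 arrays of each measured gene, by list, with filled red points for genes that met the 1.5-fold rule, open points for the rest and a blue bar at the list's median. Of the 12 BMP-SMAD targets 9 are filled on the higher side, with a median of 1.22, whereas 1 of the 9 factors is.

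BMP-SMAD targets give the scale of the ratios, whose direction rests on the dye labels. Of 12, 9 were higher in the signal labelled NOGGIN by the 1.5-fold rule and 0 were lower, with a median of 1.22. NOGGIN traps BMPs, and the authors' deposited table, read by the sample titles, runs the other way (Id1 at -4.65 and -4.53). Which direction is right was not settled. Id2, an inhibitor of helix-loop-helix factors, had 2.59 ± 0.26, the SMAD transducer Smad9 had 2.16 ± 0.28 and Id4 had 1.76 ± 0.32. Pparg, at 1.64, lay below these and above the median of the list. The other 8 factors lay at or below 0.45.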

How the data were processed

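The authors deposited 1 scanner file per array. Per the file headers these hold intensity values, with 4 spots a probe and positions in mm9. The submitters' processing notes name Agilent Feature Extraction 10.7.3.1. The deposited mean signals are not normalized. Per the file headers, the software subtracted background and corrected dye bias in the processed signals and in their log10 ratio (red over green). The authors' deposited series table holds a score per probe, which against the scanner values is a signed linear fold whose log2 had a correlation with the red to green ratio of 0.840 (array 1) and -0.885 (array 2), which makes it control over NOGGIN by the dye labels. Both columns have a median of 1. How it was normalized was not stated.

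Here mean signals were corrected by normexp (offset 50) and normalized by loess within each array, control spots having weight 0 (limma 3.58.1, R 4.3.3). Spots flagged as outliers (3.48% and 3.37%) were left out, and spots of a probe averaged. No spot was saturated. A probe counted as measured if the majority of its spots exceeded background clearly, by the software's call, in 1 channel or more of each array (29638 of 39429), and each gene took its brightest probe. Names were updated through RefSeq accessions for 28328 probes. Signals per sample are those after loess and Aquantile scaling. Ratios were fitted by limma's lmFit and eBayes over all 22311 genes or features, two-sided, with 1 residual and 4.35 prior degrees of freedom. The number of arrays limits the precision.

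In simulated ratios for 22311 features, the test found 98% of 100 genes changed by 2 on the log2 scale and 9% of 100 changed by 1. The 1.5-fold rule found 99% and 81%. Of 22111 unchanged features the test called 0.0814% and the rule 0.868%. The simulation gave both arrays the same spread, whereas 4.31% of genes passed 1.5-fold on array 1 alone and 11.8% on array 2 alone. In the data Id2 (2.59) and Id1 (2.14) had a limma adjusted p = 0.073, so these shares do not carry over to this table.

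The members and lists were chosen with earlier results of these data known. The target lists come from general knowledge. The rule for named genes takes all 9 factors, up to 4 genes a list past the 1.5-fold rule or the adjusted p (otherwise the 2 largest), Id1, and the 5 genes nearest to Pparg. A result on the lipid target list is not reported here. Ppard, Ehf, Col3a1, Pdk4, Angptl4, Lpl, Lipe, Krt5, Krt14, Upk1a and Fgfr2 were picked with their values in view. Upk1b, Upk2 and Upk3a were added to complete the list of uroplakins. Alternatives covered background correction, normalization, scaling, filter, flagged spots, spot averaging, probe choice, variance model, the deposited table and each array alone. Figures were drawn with matplotlib 3.10.9.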

Additional observations from a re-analysis of the deposited data

How the results depend on the processing

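Pparg ran from 2.83-fold to 3.43-fold over all 14 alternatives, higher in the signal labelled NOGGIN in each. With 2 arrays and 1 residual degree of freedom, its adjusted p depends on the variance model and on which genes are tested beside it. The number of the 9 factors past an adjusted p of 0.05, 0 as reported, became 1 under each of median centring, a filter on brightness in each channel, and trend and robust variance. Over all genes that number, 0 as reported, became 35 without background correction, 114 under median centring, 100 under the filter on each channel, 22 when flagged spots were kept and 141 under trend and robust variance. The genes past the 1.5-fold rule, 488 as reported, became 852 on processed signals and from 961 to 2631 on single arrays. The factors past that rule, 1 as reported, became 2 when all probes were fitted singly, which brings in the variant 4 probe of Trp63, and from 1 to 3 on single arrays. Outside the probe choice and single arrays no factor changed sign. With the mean of all probes of a gene Trp63 turned to 0.40 and Grhl2 to 0.0089, and fitted singly the other probes of Trp63 gave 0.79 and 0.44 and the dimmer probe of Grhl2 gave 0.17. On single arrays Klf5 ran from -0.20 to 0.79, Foxa1 from -0.01 to 0.57, Grhl2 from -0.51 to 0.21 and Trp63 from -0.20 to 0.15. Of 336 list counts under alternatives, 51 moved by more than 1.5 times, 26 of them on single arrays. The causes were not tested. A single array gives no limma test. The ratios already pair the NOGGIN and control sample of each array, and the series has 1 group of arrays, so no further paired analysis was run.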

Other observations

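Other regulators known from the urothelium were measured beside the 9 factors. Of 15 listed, 1 met the 1.5-fold rule, the aryl hydrocarbon receptor gene Ahr, at 1.42 and 1.46 (mean log2 ratio 1.44 ± 0.03, SD, n = 2, limma adjusted p = 0.0997 and 0.0153 to 0.62 over the alternatives). Its dimmer probe gave 0.67 and 1.49. The growth factor receptor gene Fgfr2 had 0.53 on array 1 and 1.35 on array 2. The list had a median of 0.10.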
